A study of Homo sapiens with 6 samples.

Results

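The 10 genes described here encode heat shock chaperones and partners of the cytosol and mitochondria: HSPA1A, HSPA1B, HSPA8, HSPH1, DNAJB1, HSP90AA1, HSPB1, HSPD1, HSPE1 and BAG3. They were chosen by symbol from the deposited count table, where all 10 were found among 53715 genes, and all 10 passed the filter on low counts. RNA came from H9 cells, an established line of primed human embryonic stem cells, in which LINE1 (L1), an abundant family of transposable elements, was targeted. Cells received 1 of 3 fluorescein-tagged oligonucleotides at 25 nM with a lipid reagent: ASO-Ctr, an antisense oligo with no specific target, sO-L1, the sense sequence of L1, or ASO-L1, the antisense oligo that targets L1. Tagged cells were sorted 48 hours later, and each group had 2 libraries. All groups, controls included, also received the caspase inhibitor emricasan at 5 uM, the ROCK inhibitor Y-27632 at 10 uM and trans-ISRIB, which blocks the integrated stress response, at 0.7 uM for the first 24 hours. All values thus come from 1 cell line, and L1 itself has no entry in the gene table, so its level was not analysed here. The sample labels name mTeSR and the series design names RSeT as the medium after transfection, and which of them was used is unclear. The labels do not say that the 2 libraries of a group came from separate cultures, so p-values measure only the spread between these libraries, which may be technical. For most genes the main fit took that spread largely from all genes tested together, and only in small part from the gene's own libraries. The p-values and SE below are therefore not a gene's own spread between replicates.

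Heat shock proteins fold new proteins, hold unfolded ones and help return damaged ones to use. HSP70 proteins bind exposed hydrophobic stretches in cycles driven by ATP, J proteins deliver clients and start ATP hydrolysis, and nucleotide exchange factors release the client. HSP90 matures signalling proteins, small heat shock proteins hold unfolded clients without ATP, and the HSPD1 and HSPE1 proteins form a closed folding chamber in the mitochondrial matrix. Under heat or protein damage the factor HSF1 binds heat shock elements, which are inverted repeats of a short GAA unit, and raises transcription of many of these genes. Pluripotent stem cells are known for high constitutive chaperone levels.

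Libraries held 18897936 to 67192937 counts, ASO-Ctr replicate 1 being the shallowest, and the 10 genes took 0.740% to 0.854% of them. Each chaperone had at least 286 counts in every library, but counting error was not small at the lowest of these counts. After thinning to the depth of the shallowest library, the log2 fold change of HSPA1A in ASO-L1 against sO-L1 was -0.24, against -0.13 before. The 10 stem cell markers checked were present in every library, at a summed 8672 to 9182 CPM (counts divided by the library total and scaled to a common size). In ASO-L1 against sO-L1 2 of them were called higher and 4 lower, where 10.3% and 12.7% of all genes tested were. Markers of other cells summed to 325 to 369 CPM for neural ectoderm, nearly all NES (313 to 360 CPM). Fibroblast markers summed to 380 to 414, mostly THY1, COL1A2 and COL1A1. The other fibroblast markers were low, with POSTN at most 5.77 CPM, PDGFRA 1.99, COL3A1 1.02, LUM 0.0865 and DCN 0.0216. COL3A1 differed by replicate number, at 0.952 to 1.02 CPM in the replicate 1 libraries and 0.0298 to 0.115 in those of replicate 2. The sums were 9.58 to 11.2 for trophoblast or amnion, nearly all KRT7, 4.61 to 9.06 for endoderm and 2.12 to 3.21 for mesoderm. FOXA2, an endoderm factor, stood at 3.23 to 3.89 CPM in the ASO-Ctr and sO-L1 libraries and at 1.93 and 1.61 in ASO-L1. Against sO-L1, 1 of 4 endoderm markers tested was called lower, and 1 of 6 fibroblast and 1 of 5 mesoderm markers higher. Of the neural and trophoblast markers 0 were called either way. The marker calls come from the fit with the replicate block described below, and are not given without it. SOX17, GATA6, CDX2 and GATA3 were at most 0.115 CPM, and HAND1 had 0 counts in every library, which in the shallowest leaves room for 0.159 CPM by counting error alone. The part of these markers in the results was not tested. These are bulk libraries, in which fewer cells of a type and less RNA per cell cannot be told apart.

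Most of the 10 transcripts differed little between the oligos. In ASO-L1 against sO-L1, 3 of the 10 fell, DNAJB1 to 0.832-fold, HSP90AA1 to 0.887-fold and HSPA8 to 0.897-fold, and HSPB1 rose to 1.2-fold. That is 4 of 10 called, against 23% of all 19156 genes tested (12.7% lower and 10.3% higher). Calls use the quasi-likelihood test of edgeR, with replicate number as a block, at a Benjamini-Hochberg adjusted p under 0.05 over all genes. Without the replicate block 0 of the 10 were called in any comparison by edgeR. In that fit 2 of the 10 had an unadjusted p under 0.05 in ASO-L1 against sO-L1 (16.5% of all genes), 2 in ASO-L1 against ASO-Ctr (16.7%) and 3 in sO-L1 against ASO-Ctr (2.97%), and it called 1.84%, 1.95% and 0% of all genes in these comparisons. DESeq2 with the block called the members that edgeR called in each comparison, and no others. No member reached a 2-fold change in any comparison.

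**Figure D1:**
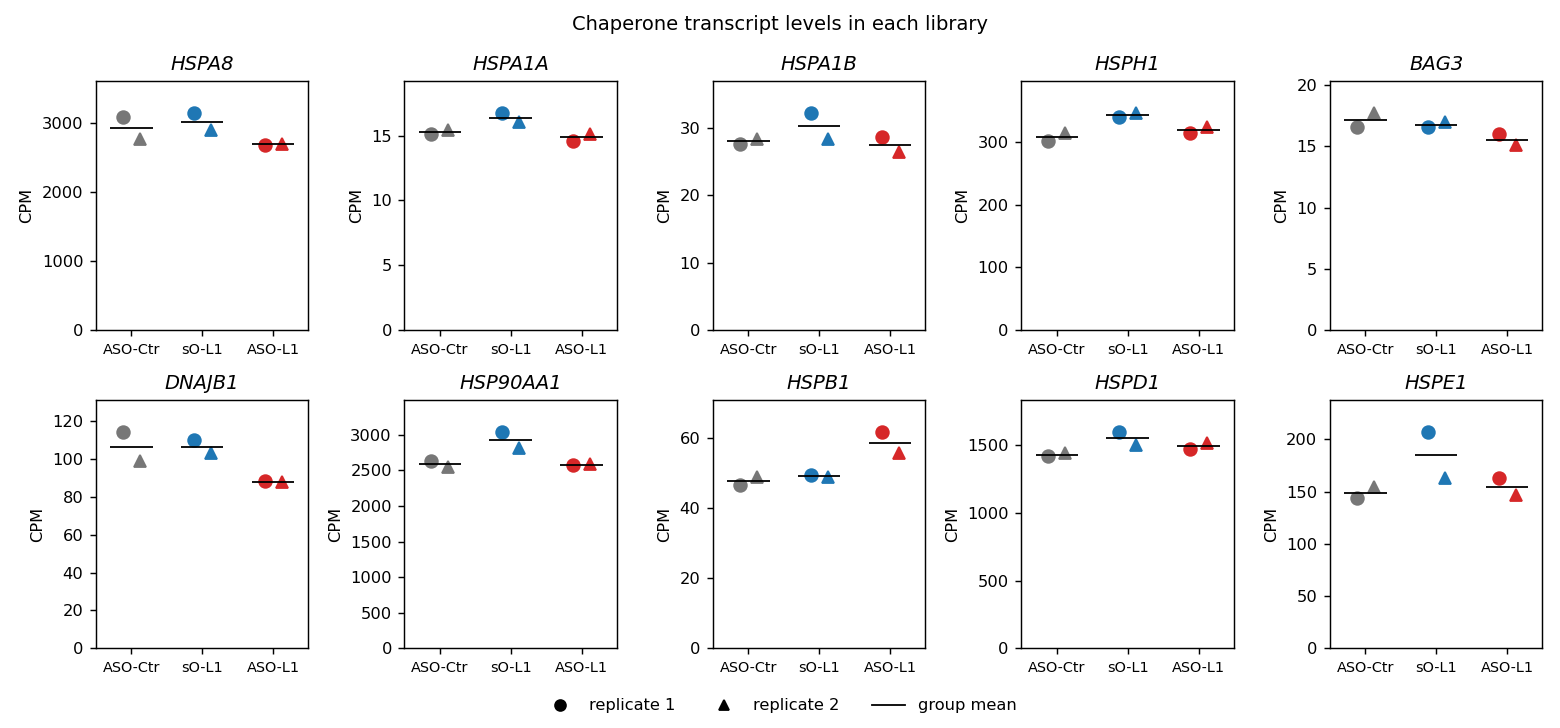
Levels of the 10 chaperone transcripts in CPM (vertical axes from 0), with 1 panel per gene, 1 point per library (circles replicate 1, triangles replicate 2) and a line at each group mean. The ASO-L1 libraries are the highest for HSPB1 (55.8 and 61.9 CPM) and the lowest for DNAJB1 (87.8 and 88.1 CPM), and most other panels are nearly flat.

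Levels of different genes were compared per length, as CPM per kb of exon (exons of GENCODE version 29 merged per gene). HSPA8 was the highest of the 10, at 991 to 1160.1 CPM per kb over the 6 libraries, followed by HSP90AA1 at 634 to 755 and HSPD1 at 551 to 621. The ranges of these 3 did not overlap. HSPE1 came next at 139 to 201 CPM per kb, then HSPH1 at 53.3 to 61.0, HSPB1 at 44.1 to 58.4 and DNAJB1 at 35.9 to 46.6, and each of the last 3 overlapped its neighbour in this order. The heat-inducible HSPA1B and HSPA1A and the exchange factor BAG3 were lowest, at 10.5 to 12.7, 5.87 to 6.73 and 5.88 to 6.88 CPM per kb, and BAG3 and HSPA1A overlapped. HSPA1A and HSPA1B share long identical stretches, and how reads that fit both were counted was not checked. Their values per kb, and so their places in this order, may be too low. HSPA6, an HSP70 gene expressed almost exclusively under strong stress, had 6 counts over all 6 libraries.

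**Figure D2:**
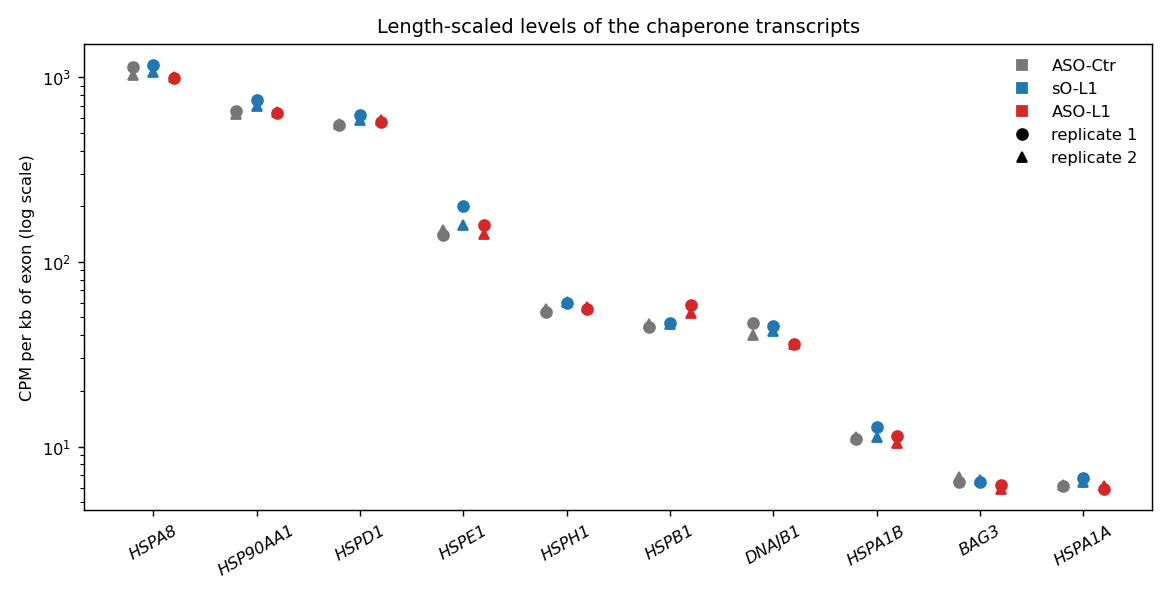
CPM per kb of exon for the 10 chaperones on a log axis, ordered by their median, with 1 point per library coloured by oligo (circles replicate 1, triangles replicate 2). HSPA8, HSP90AA1 and HSPD1 lie between 551 and 1160.1, and HSPA1B, BAG3 and HSPA1A between 5.87 and 12.7, so the differences between genes are far larger than those between oligos. The values of HSPA1A and HSPA1B may be too low, as their transcripts share long identical stretches.

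The promoters are shown because the genes differ in matches to the heat shock element, the sequence HSF1 binds. The 250 bases before each start in RefSeq (GRCh38.p14, 14 start windows for the 10 genes, all matched by symbol) were searched for GAANNTTC or TTCNNGAA, each of which is its own reverse complement and so covers both strands. They were also searched for a longer form, GAANNTTC followed by NNGAA or TTCNNGAA followed by NNTTC, which are reverse complements of each other and contain the short form. The short form was present for 7 of the 10 genes, HSPA1A, HSPA1B, HSPA8, DNAJB1, HSP90AA1, HSPB1 and HSPD1, against 14% of all genes with such windows. Counted by window, it was in 7 of the 14, against 11.6% of all 35116. The long form was present for 3 of the 10, HSPA8, HSP90AA1 and HSPD1, against 0.557% of all genes, and in 3 of the 14 windows, against 0.441% of all windows. No match was found in these windows for HSPH1, HSPE1 or BAG3, which says only that these letters are not there. For each gene with a match, 1 stretch of 30 bases around it, 5′ to 3′ on the gene's strand with the matching bases in capitals, is given below. Those of HSPA8, HSP90AA1 and HSPD1 touch an exon of the 10 genes or of HSPA1L in GENCODE version 29, and the others do not. HSPA8 and DNAJB1 each have 1 more stretch with a match, not printed, at -239 to -210 and -88 to -59 bases from the start. Neither of these touches such an exon, and that of HSPA8 also holds the long form. Exons of other genes were not checked.
HSPA8, chr11:123062171-123062200, minus strand: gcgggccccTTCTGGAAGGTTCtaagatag
HSP90AA1, chr14:102087104-102087133, minus strand: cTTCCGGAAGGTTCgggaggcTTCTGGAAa
DNAJB1, chr19:14518426-14518455, minus strand: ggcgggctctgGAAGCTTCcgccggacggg
HSPD1, chr2:197500061-197500090, minus strand: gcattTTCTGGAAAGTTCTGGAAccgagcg
HSPB1, chr7:76302480-76302509, plus strand: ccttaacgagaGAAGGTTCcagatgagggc
HSPA1A, chr6:31815426-31815455, plus strand: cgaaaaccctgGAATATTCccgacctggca
HSPA1B, chr6:31827622-31827651, plus strand: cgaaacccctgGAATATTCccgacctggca
The HSPA8, HSP90AA1 and DNAJB1 stretches belong to the 3 genes that fell in ASO-L1 against sO-L1, and the HSPB1 stretch to the gene that rose, so genes with a match were called in both directions. HSPA1A, HSPA1B and HSPD1 have a match and were not called. A match is a description of the letters and not a measured binding site.

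HSPA8 encodes the constitutive cytosolic HSP70, which folds proteins in unstressed cells. The ASO-Ctr libraries (replicates 1 and 2 in that order, as in all values below) had 3076 and 2763 CPM, the sO-L1 libraries 3131 and 2891, and the ASO-L1 libraries 2676 and 2695. Both ASO-L1 libraries lay below the other 4. HSPA8 fell in ASO-L1 against sO-L1, with a log2 fold change of -0.16 ± 0.05 (SE, n = 2 libraries per group; edgeR adjusted p = 0.0113, or 0.413 without the replicate block). This call was lost without sO-L1 replicate 1 (-0.13, adjusted p = 0.21) and without ASO-L1 replicate 1 (-0.08, adjusted p = 0.525). Against ASO-Ctr the value was -0.10 ± 0.05 (adjusted p = 0.156), which passed without ASO-L1 replicate 2 (-0.18, adjusted p = 0.0246), and sO-L1 against ASO-Ctr gave 0.06 ± 0.05 (adjusted p = 0.639). The 17 pseudogene rows of HSPA8 summed to 327 counts, against 808402 for the gene itself.

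HSPA1A and HSPA1B encode the heat-inducible cytosolic HSP70, the textbook readout of the heat shock response. Their transcripts share long identical stretches: 71.2% of the 75-base words of the longest HSPA1A transcript also occur in HSPA1B (GENCODE version 29). The split of reads between the 2 genes is therefore uncertain, and their sum is the safer quantity for comparing oligos. The sum may still be too low as a level if reads that fit both genes were left out. Summed, they stood at 42.8 and 43.8 CPM in the ASO-Ctr pair, 48.8 and 44.3 in the sO-L1 pair, and 43.3 and 41.5 in the ASO-L1 pair, with HSPA1A taking 33.7% to 36.5% of the sum in the 6 libraries. The sO-L1 replicate 1 library was the highest, and the other 5 lay between 41.5 and 44.3 CPM. Neither gene was called in any comparison. With their counts summed, the log2 fold change in ASO-L1 against sO-L1 was -0.13 ± 0.06 (edgeR with the block, adjusted p = 0.103). In ASO-L1 against sO-L1 the log2 fold changes were -0.13 ± 0.08 for HSPA1A and -0.12 ± 0.06 for HSPA1B (adjusted p = 0.262 and 0.17), and against ASO-Ctr they were -0.02 ± 0.08 and -0.02 ± 0.07 (adjusted p = 0.901 and 0.856). The 95% interval of the fold in ASO-L1 against ASO-Ctr ran from 0.879 to 1.11 for HSPA1A and from 0.896 to 1.08 for HSPA1B (0.849 to 1.148 and 0.851 to 1.17 without the replicate block).

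HSPH1 encodes HSP110, an HSP70 relative that acts as a nucleotide exchange factor. It stood at 302 and 314 CPM in the ASO-Ctr pair, 340 and 346 in the sO-L1 pair, and 315 and 324 in the ASO-L1 pair. The 3 groups did not overlap, and sO-L1 was the highest. HSPH1 rose in sO-L1 against ASO-Ctr, by 0.17 ± 0.05 on the log2 scale (edgeR adjusted p = 0.0409, or 1 without the replicate block), 1 of the 2 members called in that comparison. The call was lost without any single library of either group (adjusted p = 0.468 and 0.14 without ASO-Ctr replicates 1 and 2, 0.847 and 0.146 without sO-L1 replicates 1 and 2) and after thinning all libraries to the depth of the shallowest (adjusted p = 0.0819). Its values in ASO-L1 were -0.10 ± 0.05 against sO-L1 and 0.07 ± 0.05 against ASO-Ctr (adjusted p = 0.132 and 0.278).

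BAG3 encodes an HSP70 exchange factor and adaptor that directs damaged proteins to autophagy. CPM values were 16.6 and 17.7 for ASO-Ctr, 16.6 and 17 for sO-L1, and 16 and 15.1 for ASO-L1. Both ASO-L1 libraries were the lowest, but no comparison was called: -0.11 ± 0.08 against sO-L1, -0.13 ± 0.08 against ASO-Ctr, and -0.02 ± 0.08 for sO-L1 against ASO-Ctr (adjusted p = 0.353, 0.268 and 0.945).

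DNAJB1 encodes HSP40, the J protein that feeds clients to cytosolic HSP70. CPM values were 114 and 98.7 for ASO-Ctr, 109.7 and 103 for sO-L1, and 88.1 and 87.8 for ASO-L1. All 4 libraries of the other groups lay above both ASO-L1 libraries, while ASO-Ctr and sO-L1 overlapped. DNAJB1 fell in ASO-L1 against sO-L1 (log2 fold change -0.27 ± 0.05, adjusted p = 8.0e-05) and against ASO-Ctr (-0.24 ± 0.05, adjusted p = 3.9e-04). Without the replicate block the adjusted p-values were 0.19 and 0.213. The call against sO-L1 held when any 1 library was left out, and that against ASO-Ctr was lost without ASO-Ctr replicate 1 or ASO-L1 replicate 1 (adjusted p = 0.0869 and 0.0901). The 2 comparisons share the ASO-L1 libraries and are not independent. In sO-L1 against ASO-Ctr the value was 0.02 ± 0.05 (adjusted p = 0.909).

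HSP90AA1 encodes the stress-responsive isoform of cytosolic HSP90. The ASO-Ctr libraries had 2639 and 2553 CPM, those of sO-L1 3039.7 and 2810.4, and those of ASO-L1 2569.6 and 2593. The sO-L1 libraries lay above the other 4, and ASO-Ctr and ASO-L1 overlapped. HSP90AA1 fell in ASO-L1 against sO-L1 (-0.17 ± 0.05, adjusted p = 0.00435, or 0.306 without the replicate block) and rose in sO-L1 against ASO-Ctr (0.19 ± 0.05, adjusted p = 0.0214, or 1 without the replicate block). ASO-L1 against ASO-Ctr gave 0.02 ± 0.05 (adjusted p = 0.869; 95% interval of the fold 0.947 to 1.08). The call against sO-L1 was lost without sO-L1 replicate 1 or ASO-L1 replicate 1 (adjusted p = 0.229 and 0.244), and that of sO-L1 against ASO-Ctr without ASO-Ctr replicate 1, ASO-Ctr replicate 2 or sO-L1 replicate 1 (adjusted p = 0.372, 0.117 and 0.956).

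HSPB1 encodes HSP27, a small heat shock protein that binds unfolded clients and actin filaments. CPM values were 46.8 and 49 for ASO-Ctr, 49.6 and 49 for sO-L1, and 61.9 and 55.8 for ASO-L1. Both ASO-L1 libraries were above the other 4. HSPB1 rose in ASO-L1, by 0.26 ± 0.05 against sO-L1 (adjusted p = 3.4e-04, or 0.151 without the replicate block) and by 0.30 ± 0.06 against ASO-Ctr (adjusted p = 4.8e-05, or 0.0928 without the replicate block). It was the 1 member called higher in each of these comparisons. The call against sO-L1 was lost without ASO-L1 replicate 1 (0.18, adjusted p = 0.0712), and the call against ASO-Ctr held when any 1 library was left out. sO-L1 against ASO-Ctr gave 0.05 ± 0.06 (adjusted p = 0.807).

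HSPD1 and HSPE1 encode HSP60 and HSP10, the chamber and lid of the mitochondrial chaperonin, and are transcribed away from each other from neighbouring starts on chromosome 2. In GENCODE version 29 an HSPE1 exon overlaps an HSPD1 exon on the opposite strand and the readthrough transcript HSPE1-MOB4 on the same strand, so counts of these genes carry that uncertainty. HSPD1 stood at 1417 and 1439 CPM in the ASO-Ctr pair, 1596 and 1504 in the sO-L1 pair, and 1469 and 1512 in the ASO-L1 pair. It was lowest in ASO-Ctr, and sO-L1 and ASO-L1 overlapped. HSPD1 was not called: -0.05 ± 0.05 in ASO-L1 against sO-L1, 0.08 ± 0.05 in ASO-L1 against ASO-Ctr and 0.14 ± 0.05 in sO-L1 against ASO-Ctr (adjusted p = 0.486, 0.206 and 0.146).

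HSPE1 had 144 and 154 CPM in the ASO-Ctr pair, 207 and 162.6 in the sO-L1 pair, and 162.7 and 146 in the ASO-L1 pair. The sO-L1 replicate 1 library stood above the other 5, and the sO-L1 and ASO-L1 ranges touched. HSPE1 was not called: -0.25 ± 0.08 in ASO-L1 against sO-L1, 0.06 ± 0.09 in ASO-L1 against ASO-Ctr and 0.31 ± 0.09 in sO-L1 against ASO-Ctr (adjusted p = 0.0649, 0.698 and 0.146). In ASO-L1 against sO-L1 it passed under 8 of 16 alternatives, among them limma-voom (adjusted p = 0.00202) and leaving out sO-L1 replicate 2 (-0.41, adjusted p = 2.7e-04), ASO-L1 replicate 1 or 2 (adjusted p = 0.00408 and 0.00237) or ASO-Ctr replicate 1 or 2 (adjusted p = 1.7e-05 and 7.9e-06). Without sO-L1 replicate 1 the value was -0.08, with an adjusted p of 0.561. In ASO-L1 against ASO-Ctr it passed upward without ASO-Ctr replicate 2 (0.25, adjusted p = 0.00365). In sO-L1 against ASO-Ctr it passed under 8 of 16 alternatives, among them leaving out ASO-Ctr replicate 2 (0.50, adjusted p = 1.2e-09), sO-L1 replicate 2 (0.48, adjusted p = 9.5e-04) or ASO-L1 replicate 1 or 2 (adjusted p = 1.3e-06 and 1.5e-06). In that comparison the value was 0.15 without sO-L1 replicate 1 and 0.15 without ASO-Ctr replicate 1 (adjusted p = 0.986 and 0.548). Its size and its call therefore depend on single libraries.

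**Figure D3:**
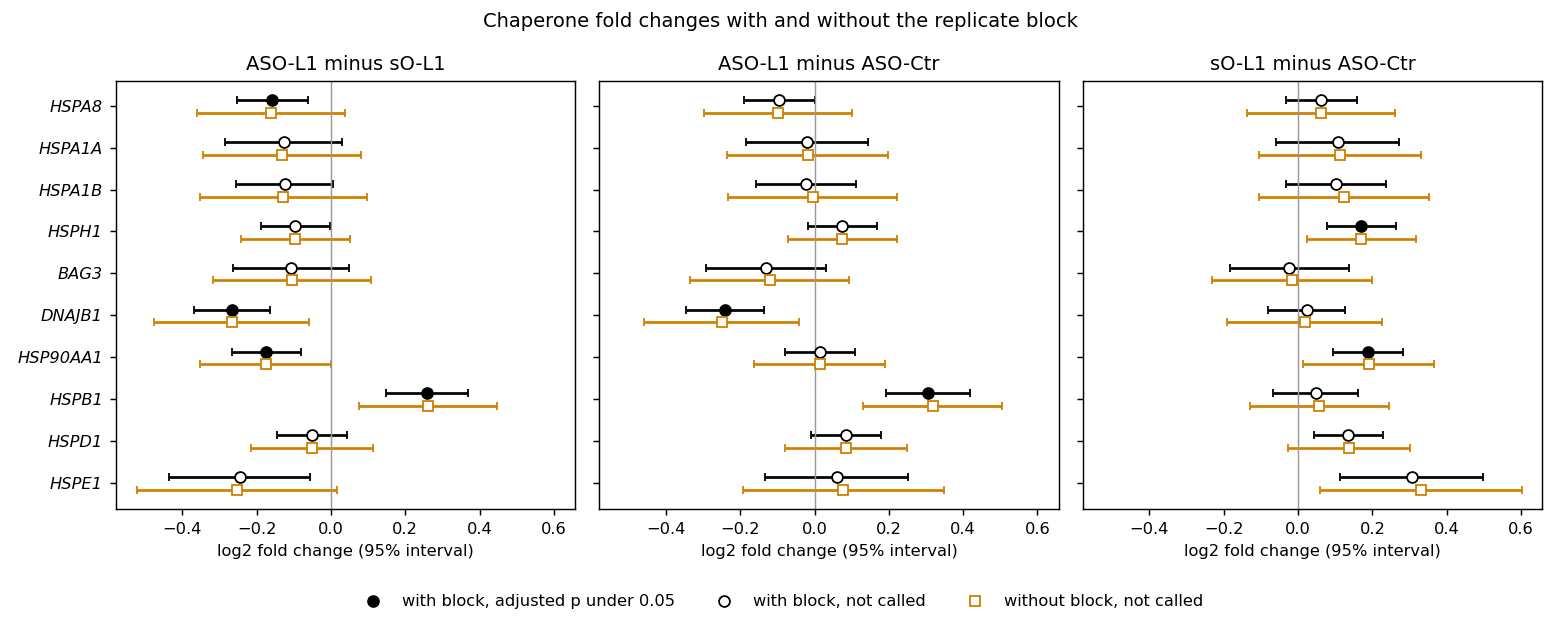
Log2 fold changes of the 10 chaperones in the 3 comparisons with 95% intervals (horizontal axis). Circles are the fit with the replicate block (filled where the adjusted p is under 0.05) and squares the fit without it, whose intervals are wider and in which 0 of the 10 were called.

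In ASO-L1 against sO-L1, 9 of 10 values were below 0, with a median log2 fold change of -0.13 against 0.00 over all genes tested. In 6 members both ASO-L1 libraries lay below both sO-L1 libraries, which was so for 24.1% of all genes, and in 1 both lay above (22.4% of all genes). In ASO-L1 against ASO-Ctr, HSPB1 was higher and DNAJB1 lower, 2 of 10 called against 21.5% of all genes (9.88% higher, 11.6% lower), and the median was 0.00 against 0.00 over all genes. Here 4 members did not overlap downward (27.6% of all genes) and 3 upward (20.9% of all genes). In sO-L1 against ASO-Ctr, HSP90AA1 and HSPH1 were higher, 2 of 10 against 1.72% of all genes called (0.658% higher, 1.06% lower), and 9 of 10 values were above 0, with a median of 0.10 against 0.00 over all genes. In 5 members both sO-L1 libraries lay above both ASO-Ctr libraries (12.8% of all genes) and in 0 below (16.8%). The medians of the 10 related gene lists described below ran from 0.01 to 0.11 in this comparison. TRiC and prefoldin stood at 0.10, endoplasmic reticulum chaperones at 0.09 and proteasome subunits at 0.08. Without sO-L1 replicate 1 the medians were -0.08 in ASO-L1 against sO-L1 and 0.06 in sO-L1 against ASO-Ctr, and of the calls in these 2 comparisons those of HSPB1 and DNAJB1 in the first were kept. The comparisons share libraries pairwise. Set against ASO-Ctr, both sO-L1 libraries were higher for HSPA1A, HSPH1, HSP90AA1, HSPD1 and HSPE1, and both ASO-L1 libraries were lower for HSPA1A, HSPA8, DNAJB1 and BAG3. For HSPA1A in ASO-L1 this is no real separation, with 15.1298 CPM in ASO-L1 replicate 2 and 15.1339 in ASO-Ctr replicate 1 (286 counts).

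The authors' deposited table of ASO-L1 against sO-L1 lists all 10 chaperones and gives 5 an adjusted p under 0.05. In the authors' deposited table these are DNAJB1 (log2 fold change -0.26, adjusted p = 2.7e-04), HSP90AA1 (-0.16, adjusted p = 0.00219), HSPA8 (-0.15, adjusted p = 0.00628), HSPE1 (-0.23, adjusted p = 0.00519) and HSPB1 (0.27, adjusted p = 8.0e-04). It calls HSPE1, which the edgeR fit did not, and the other 4 are called in both.

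Across the 6 libraries the members did not move as one. The correlation of a member's log2 CPM with the mean of the other 9 was 0.94 for HSP90AA1, 0.91 for HSPA1B, 0.89 for HSPE1 and 0.84 for HSPA1A, but 0.34 for DNAJB1, 0.18 for BAG3 and -0.51 for HSPB1. These are descriptions over 6 libraries of 1 cell line that differ in depth, so no p is given. The mean pattern of the 10 was highest in sO-L1 replicate 1 (0.12 above the mean of all libraries on the log2 scale), with sO-L1 replicate 2 at 0.02 and the other 4 between -0.06 and -0.03. The non-member genes most like that mean pattern, among 8572 genes with an average log2 CPM of at least 4, were CETN3, OSTC, PGAP3, H3F3AP4 and ANP32B, with Pearson r from 0.981 to 0.993 over the 6 libraries. CETN3, a centrin of the centriole, had 45.6 CPM in sO-L1 replicate 1 and 33.9 to 38.7 in the other 5 libraries.

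The wider chaperone network was counted from lists of related genes. The shares over all genes to read these counts against are 10.3% higher and 12.7% lower in ASO-L1 against sO-L1, 9.88% and 11.6% in ASO-L1 against ASO-Ctr, and 0.658% and 1.06% in sO-L1 against ASO-Ctr. Unless another comparison is named, a gene's change is that of ASO-L1 against sO-L1 on the log2 scale, and each adjusted p is followed by that without the replicate block.

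Of 8 other HSP70 family genes tested against sO-L1, 1 was higher and 3 lower (0 and 0 without the replicate block, 1 and 0 by DESeq2). Against ASO-Ctr 2 were higher and 2 lower, and in sO-L1 against ASO-Ctr 0 were called by edgeR (1 at an unadjusted p under 0.05), DESeq2 or limma-voom. HSPA9, the mitochondrial HSP70 that pulls proteins into the matrix, rose by 0.29 ± 0.05 (adjusted p = 1.9e-06, unblocked 0.0893), from 832 and 814 CPM with sO-L1 to 1038 and 971 with ASO-L1, and by 0.34 ± 0.05 against ASO-Ctr (adjusted p = 1.1e-07, unblocked 0.0614). HSPA1L, a testis-enriched HSP70 encoded beside HSPA1A, fell by 0.55 ± 0.15 (adjusted p = 0.00551, unblocked 0.156), but was not called against ASO-Ctr (-0.21 ± 0.16). HSPA4L and HSPA12B were the other 2 that fell (-0.30 ± 0.10 and -0.31 ± 0.12, adjusted p = 0.0252 and 0.0488, unblocked 0.443 and 0.423).

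Of 15 HSP90 family genes and co-chaperones, 2 were higher and 5 lower against sO-L1, 2 higher and 3 lower against ASO-Ctr, and 2 higher and 0 lower in sO-L1 against ASO-Ctr (0 in each without the replicate block). CACYBP, the calcyclin-binding protein, fell by 0.32 ± 0.05 (adjusted p = 1.3e-06, unblocked 0.0888). Its difference from ASO-Ctr was -0.13 ± 0.05 in ASO-L1 (adjusted p = 0.0498, unblocked 0.489) and 0.19 ± 0.05 in sO-L1 (adjusted p = 0.0289, unblocked 1). AHSA1, which speeds the ATP cycle of HSP90, fell by 0.20 ± 0.05 (adjusted p = 0.00117, unblocked 0.261), and UNC45A, a myosin chaperone, by 0.16 ± 0.05 (adjusted p = 0.0108, unblocked 0.267). CDC37, which brings kinases to HSP90, rose by 0.19 ± 0.05 (adjusted p = 0.00218, unblocked 0.206). HSP90AB1, the constitutive HSP90 isoform, was not called (-0.05 ± 0.05, adjusted p = 0.517), at 3391 to 3622 CPM over the 6 libraries.

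Of 20 other J proteins, 2 were higher and 2 lower against sO-L1, 2 higher and 3 lower against ASO-Ctr, and 1 higher and 0 lower in sO-L1 against ASO-Ctr (0 in each without the replicate block). DNAJA3, the mitochondrial J protein, rose by 0.21 ± 0.05 (adjusted p = 0.00134, unblocked 0.249), and DNAJC6, the clathrin-uncoating auxilin, by 0.40 ± 0.11 (adjusted p = 0.00653, unblocked 0.19). DNAJB6 and DNAJC5 fell (-0.14 ± 0.05 and -0.15 ± 0.05, adjusted p = 0.0221 and 0.0225, unblocked 0.32 and 0.333).

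Of 4 other small heat shock genes tested, 1 was higher and 1 lower against sO-L1 and likewise against ASO-Ctr (0 in each without the replicate block), and 5 more had too few counts to test. HSPB8, the small heat shock protein that pairs with BAG3, rose by 0.78 ± 0.10 (adjusted p = 2.1e-08, unblocked 0.0763), from 7.56 and 8.66 CPM with sO-L1 to 13.05 and 14.6 with ASO-L1, with ASO-Ctr at 6.72 and 11.2. HSPB11 fell by 0.31 ± 0.07 (adjusted p = 8.1e-04, unblocked 0.23). It was listed here by its symbol alone, so its fall is not that of an established small heat shock chaperone. CRYAB and HSPB9, the 2 not called, had at most 22 and 16 counts in a library.

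Of 13 exchange factors and ubiquitin partners, 4 were higher and 2 lower against sO-L1 (2 and 0 without the replicate block), and 5 higher and 1 lower against ASO-Ctr (3 and 0). BAG2, an inhibitor of the HSP70-bound ubiquitin ligase STUB1, rose by 0.58 ± 0.07 (adjusted p = 3.7e-09, unblocked 0.0153), from 19.8 and 20.2 CPM to 30.6 and 29.03. SQSTM1, the autophagy receptor p62, rose by 0.60 ± 0.07 (adjusted p = 9.2e-07, unblocked 0.029). Against ASO-Ctr these 2 rose by 0.71 ± 0.07 and 0.67 ± 0.07 (unblocked adjusted p = 0.00716 and 0.0205). GRPEL2, a mitochondrial exchange factor, rose by 0.33 ± 0.05 (adjusted p = 3.5e-06, unblocked 0.0598), and HSPBP1, a cytosolic one, fell by 0.22 ± 0.05 (adjusted p = 0.00218, unblocked 0.383).

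Mitochondrial proteases, import and the mitochondrial unfolded protein response had 16 genes tested, with 3 higher and 1 lower against sO-L1 (1 and 0 without the replicate block) and 4 higher and 0 lower against ASO-Ctr (3 and 0). The matrix protease LONP1 rose by 0.31 ± 0.05 (adjusted p = 1.7e-06, unblocked 0.0596), and TIMM44, which tethers HSPA9 to the import channel, by 0.38 ± 0.05 (adjusted p = 5.6e-08, unblocked 0.0625). Against ASO-Ctr LONP1 and TIMM44 rose by 0.37 ± 0.05 and 0.47 ± 0.05 (unblocked adjusted p = 0.0352 and 0.032). The transcription factor ATF5 rose by 1.93 ± 0.06 (adjusted p = 2.8e-28, unblocked 0.00538), and TIMM23, an import channel subunit, fell by 0.17 ± 0.05 (adjusted p = 0.0194, unblocked 0.548).

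Of 14 TRiC and prefoldin subunits, which fold actin and tubulin, 0 were called in ASO-L1 against sO-L1 by edgeR with or without the block, by DESeq2 or by limma-voom, and 0 had an unadjusted p under 0.05 with blocked edgeR (0 with DESeq2, 1 with limma-voom). Of those with the smallest p, CCT6A and CCT5 had -0.09 ± 0.05 and -0.07 ± 0.05, and CCT7 and CCT8 0.07 ± 0.05 and 0.06 ± 0.05. Against ASO-Ctr 5 of the 14 were higher and 0 lower (0 without the block, 1 higher by DESeq2), among them CCT8 (0.19 ± 0.05, adjusted p = 0.00134, unblocked 0.345). Of 31 proteasome subunits 0 were higher and 3 lower against sO-L1, 7 higher and 0 lower against ASO-Ctr, and 1 higher and 0 lower in sO-L1 against ASO-Ctr (0 in each without the block). PSMA4, PSMD14 and PSMD7 were the 3 lower ones (-0.17 ± 0.05, -0.14 ± 0.05 and -0.13 ± 0.05, unblocked adjusted p = 0.384, 0.43 and 0.462), and PSMD6 was not called (-0.13 ± 0.05, adjusted p = 0.0504).

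Of 7 heat shock factors and regulators tested, 3 were higher and 0 lower against sO-L1, 2 higher and 0 lower against ASO-Ctr, and 0 higher and 1 lower in sO-L1 against ASO-Ctr (0 in each without the replicate block). HSF1 itself, the factor that induces the heat shock genes, rose by 0.16 ± 0.05 (adjusted p = 0.0185, unblocked 0.319), from 62.9 and 61.9 CPM to 71.9 and 67.3, and by 0.19 ± 0.05 against ASO-Ctr (adjusted p = 0.00748, unblocked 0.232). The deacetylase SIRT1, a modifier of HSF1 protein, rose by 0.21 ± 0.05 (adjusted p = 9.4e-04, unblocked 0.181) and by 0.21 ± 0.05 against ASO-Ctr (adjusted p = 8.3e-04, unblocked 0.165). The acetyltransferase EP300, another such modifier, was 0.29 ± 0.05 higher than in sO-L1 (adjusted p = 2.0e-05, unblocked 0.264) but was not called against ASO-Ctr (0.06 ± 0.05, adjusted p = 0.425), and it fell in sO-L1 against ASO-Ctr (-0.22 ± 0.05, adjusted p = 0.0115, unblocked 1). Its sO-L1 replicate 1 library, at 175 CPM, was the lowest of the 6, and the other 5 lay between 226 and 258. HSBP1, an HSF1-binding protein, and HSF2 were not called (-0.08 ± 0.05 and -0.05 ± 0.06).

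Of 14 endoplasmic reticulum chaperones, whose genes answer mainly to the unfolded protein response, 0 were higher and 9 lower against sO-L1 (0 and 1 without the block), with a median of -0.17. Against ASO-Ctr 1 was higher and 4 lower (0 and 0 without the block), with a median of -0.06, and in sO-L1 against ASO-Ctr 1 was higher and 0 lower (0 and 0), with a median of 0.09. HSP90B1, the reticulum's HSP90, was that 1 (0.18 ± 0.05, adjusted p = 0.0306, unblocked 1); it fell in ASO-L1 by 0.36 ± 0.05 against sO-L1 (adjusted p = 4.9e-08, unblocked 0.0432) and by 0.18 ± 0.05 against ASO-Ctr (adjusted p = 0.00346, unblocked 0.25). HSPA5, its HSP70, fell by 0.23 ± 0.05 against sO-L1 (unblocked adjusted p = 0.136) and by 0.15 ± 0.05 against ASO-Ctr (adjusted p = 0.0139, unblocked 0.321). The disulfide isomerases PDIA4 and PDIA6 fell by 0.30 ± 0.05 and 0.22 ± 0.05 against sO-L1 (unblocked adjusted p = 0.0643 and 0.144).

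**Figure D4:**
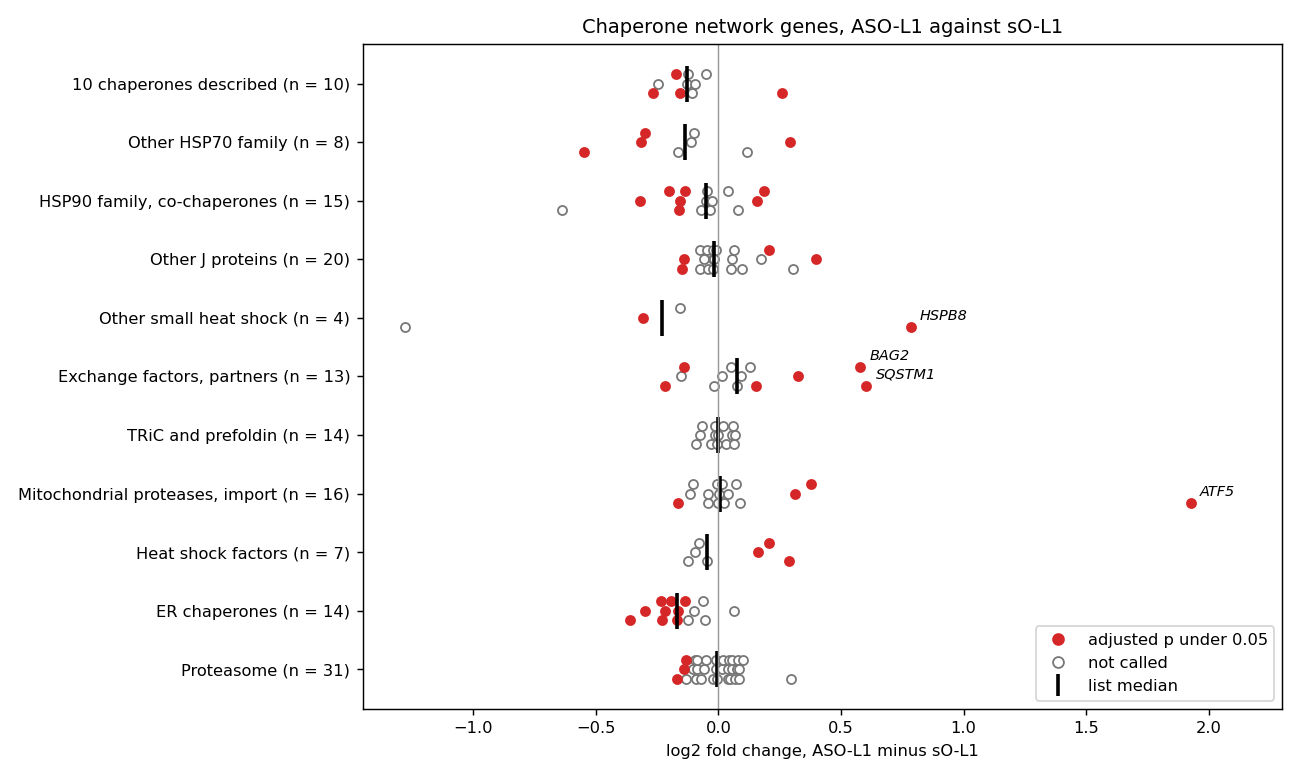
Log2 fold changes in ASO-L1 against sO-L1 (horizontal axis) of the 10 chaperones and of every tested gene of the 10 related lists, 1 point per gene, filled red where the edgeR adjusted p is under 0.05, with a black bar at each list's median. Endoplasmic reticulum chaperones lie mostly below 0, TRiC and prefoldin genes cluster at 0, and HSPB8, BAG2, SQSTM1 and ATF5 are the labelled increases.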

How the data were processed

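Poly(A) RNA of 6 libraries was sequenced with a directional kit. Per the submitters' processing notes, the tools were Trim Galore 0.4.0, TopHat2 2.0.13 and featureCounts of Subread 1.5.0, with the build hg19. The deposited table holds raw counts by gene symbol. Its name says that the authors removed duplicate reads; such removal can lower the highest genes, such as HSPA8, and the strand setting is not given in the sources used here. The count table's header sits 1 cell left of its values; after that shift, each column matched its own library in the deposited log2 table (lowest correlation 0.998 over 8636 genes, at most 0.892 with another library). The deposited log2 values are normalized and batch corrected by the authors, and the deposited p-values belong to the authors' comparison of ASO-L1 and sO-L1; their score columns (deposited t and B) were not used.

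The 92 spike-in rows were left out. Genes passing filterByExpr (minimum count 10, minimum total 15), 19156 in all, were scaled by TMM and entered 1 fit of all 6 libraries with edgeR 4.0.16 (R 4.3.3; quasi-likelihood, robust) on group and replicate number (2 residual degrees of freedom, median prior 44.8). SE is the size of the log2 fold change divided by the root of F, and so rests for most genes on the spread shared over all genes. CPM is per total gene count, and log2 CPM used an added 0.5. Replicate number entered because the study deposits a batch-corrected table, in which the means of replicates 1 and 2 lay within 0.02 for 82.6% of genes (10.3% in log2 CPM). Differences between replicates correlated at 0.353 to 0.462 between groups, but replicate 1 was also the shallower library of every group. No label ties a number to a batch, so the pairing is an assumption. Values without the block stand beside most calls, though not beside those of the cell type markers. The script was tested on simulated data.

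The members and lists were chosen with earlier results of these data known. Named were all members, up to 4 genes per list with the smallest p in ASO-L1 against sO-L1, and the 5 most alike genes; HSP90AB1, HSF2 and HSPA6, and the marker genes singled out, were added after their values were seen. Alternatives were other scalings and filters, DESeq2 1.42.0, limma-voom (limma 3.58.1), no block, the 4 libraries compared, each library left out, other thresholds, thinning, and copies summed. Promoter sequences are from RefSeq.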

Additional observations from a re-analysis of the deposited data

How the results depend on the processing

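The refits covered 16 alternatives for each member and comparison, 480 values in all. Of these, 429 kept direction and side of the threshold, 23 lost a call, 18 gained one and 10 changed sign. Every sign change was of a member with no call. In ASO-L1 against sO-L1, HSPD1 ran from -0.12 to 0.016 over the libraries left out. In ASO-L1 against ASO-Ctr, HSPA1A ran from -0.075 to 0.019, with -0.15 the lowest over all 16 alternatives. In the same comparison HSP90AA1 ran from -0.041 to 0.072, HSPE1 from -0.095 to 0.25, and HSPA1B from -0.096 to 0.087, with 0.12 after thinning. In sO-L1 against ASO-Ctr, DNAJB1 ran from -0.063 to 0.10, HSPB1 from -0.012 to 0.14 and BAG3 from -0.063 to 0.050, with 0.22 after thinning.

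Without the replicate block, calls in ASO-L1 against sO-L1 went from 4412 genes to 352 and from 1 higher and 3 lower members to 0 and 0, calls against ASO-Ctr from 4120 genes to 374 and from 1 and 1 members to 0 and 0, and calls in sO-L1 against ASO-Ctr from 330 genes to 0 and from 2 higher members to 0. The log2 fold change of DNAJB1 against sO-L1 was -0.27 with and without the block, and its SE 0.05 and 0.09. Differences between replicates correlated at 0.353 to 0.462 in all 3 pairs of groups. Replicate 1 was the shallower library of every group, so a shared batch and depth cannot be told apart in this correlation. Some single genes differed by replicate number in every group. COL3A1 had 0.952 to 1.02 CPM in the replicate 1 libraries and 0.0298 to 0.115 in replicate 2, and SOX1 had 1.90 to 2.94 and 0.566 to 0.794. Others, such as NES and POSTN, did not separate by replicate number. What these differences come from was not tested. In the same order of comparisons, DESeq2 called 2355, 2436 and 125 genes, thinning to the shallowest library left 2021, 2170 and 81, and a change of at least 2-fold left 224, 210 and 11, with 0 members. In sO-L1 against ASO-Ctr, limma-voom called 191 genes, the 4 libraries alone 516 and an adjusted p under 0.1 520. Leaving out 1 library gave 1802 to 4702 genes in ASO-L1 against sO-L1, with 0 to 1 members higher and 1 to 4 lower, 2336 to 3693 against ASO-Ctr, with 1 to 2 higher and 0 to 2 lower, and 9 to 496 in sO-L1 against ASO-Ctr, with 0 to 3 higher. A group left with 1 library was assumed to vary like the others. The cause of these shifts was not tested.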
